A study of Rattus norvegicus and Mus musculus with 24 samples.

Results

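The genes described here encode the machinery of macroautophagy and mitophagy, and 43 of them were listed by symbol, from the kinases that start an autophagosome to the receptors that load it. A gene was included where its symbol stood in the table of kidney transcripts of a species, which held for 42 of the 43 among 17376 mouse symbols and for 35 among 14931 rat symbols. MAP1LC3B, the gene of the widely used autophagosome marker LC3B, was not analysed here in either species, and ATG2A, ATG2B, ATG4A, ATG5, RUBCN, GABARAPL1 and EPG5 were analysed only in the mouse. All 42 mouse and all 35 rat genes passed the filters on low values.

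Bulk polyadenylated RNA was sequenced from Ctns KO animals and their WT control littermates, 4 against 4 mice on a C57BL/6 background and 8 against 8 rats of the Sprague-Dawley background, with 1 library per animal. KO animals lack a working Ctns gene, which encodes cystinosin, the exporter of cystine from the lysosome, and no treatment is named for any of the 24 animals. The methods name female mice of several ages for the study's mouse work and rats of both sexes for a drug treatment, without giving the age of the animals sequenced, and the rats carry numbers, of which 17 to 24 and 25 to 32 each hold 4 KO and 4 WT animals, without a statement of what the numbers stand for. The tissue is called kidney cortex, while the extraction notes name microdissected proximal tubules. In bulk RNA of either kind, fewer cells of a type and less RNA per cell cannot be told apart.

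Macroautophagy encloses cytoplasm in a double membrane, the phagophore, which closes into an autophagosome and fuses with the lysosome. The ULK1 kinase complex and a class III phosphatidylinositol 3-kinase complex start the membrane, lipid transfer proteins enlarge it, and ubiquitin-like conjugation reactions attach proteins of the ATG8 family (LC3 and GABARAP) to it, which bind the receptors of the cargo. Mitophagy is the same process applied to mitochondria, tagged either by the kinase PINK1 on damaged mitochondria or by receptors of the outer membrane such as BNIP3, and the proximal tubule, a cell type rich in mitochondria and lysosomes, uses both.

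Between 19309371 and 44449843 reads per mouse and between 24684097 and 40629873 per rat fell on genes. Ctns itself was lower in every KO mouse than in every WT mouse (log2 fold change -1.34, SE 0.07, adjusted p = 2.08e-07 from limma), whereas in rats it overlapped between genotypes (-0.22, SE 0.08, adjusted p = 0.0511 by the quasi-likelihood test of edgeR), so that the level of this transcript does not check the genotype label of a single rat. Markers of other cell types moved with genotype. At an adjusted p under 0.05, 10 of 10 tested macrophage markers were higher in KO mice and 9 of 10 in KO rats. Proximal tubule markers were called lower for 1 of 13 in mice. The count was 2 of 11 in rats 17 to 24 and 10 of 11 in rats 25 to 32. Whether called or not, all 13 had a negative log2 fold change in mice (median -0.21). All 11 did in each rat range (medians -0.27 and -0.90). The summed mouse markers ranged from 624 to 839 scaled units (defined below) in WT and from 527 to 605 in KO mice. In rats 25 to 32 the summed proximal tubule markers ranged from 34660 to 40470 CPM (reads scaled to TMM-normalized library size) in WT and from 17266 to 22454 in KO animals. In rats 17 to 24 they ranged from 25131 to 29688 in WT and from 21320 to 23214 in KO animals. Every listed marker present in a table had reads, KAP stood in neither table and LRP2 and SLC5A12 not in that of the rat. The part of these markers in the results below was not tested.

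In mice, 2 of 42 members passed an adjusted p of 0.05 for the comparison of KO with WT, PINK1 lower and ATG16L2 higher in KO kidneys, a share that stood below the 8.04% of all 11617 genes tested. Over all 16 rats, 14 of 35 differed, 12 of them lower and 2 higher, against 27.5% of all 11584 genes tested. PINK1 had the largest called change of any member in each of the rat comparisons, and in rats 25 to 32 it fell by 49.1% on the fitted scale. The direction was mostly downward in rats: 12.3% of all genes tested were lower and 15.2% higher in KO rats, whereas the members divided 12 to 2. In mice 2.46% of all genes were lower and 5.58% higher. The median log2 fold change of the members was 0.00 in mice, where that of all genes was also 0.00, and -0.15 in rats, where that of all genes was -0.02. Beside the 2 that passed, 4 more members of the mouse, WIPI1, WIPI2, ATG10 and BNIP3, all with lower KO levels, had an unadjusted p under 0.05. The share of all genes at an unadjusted p under 0.05 was not counted, for this or for the later counts at that threshold.

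**Figure D1:**
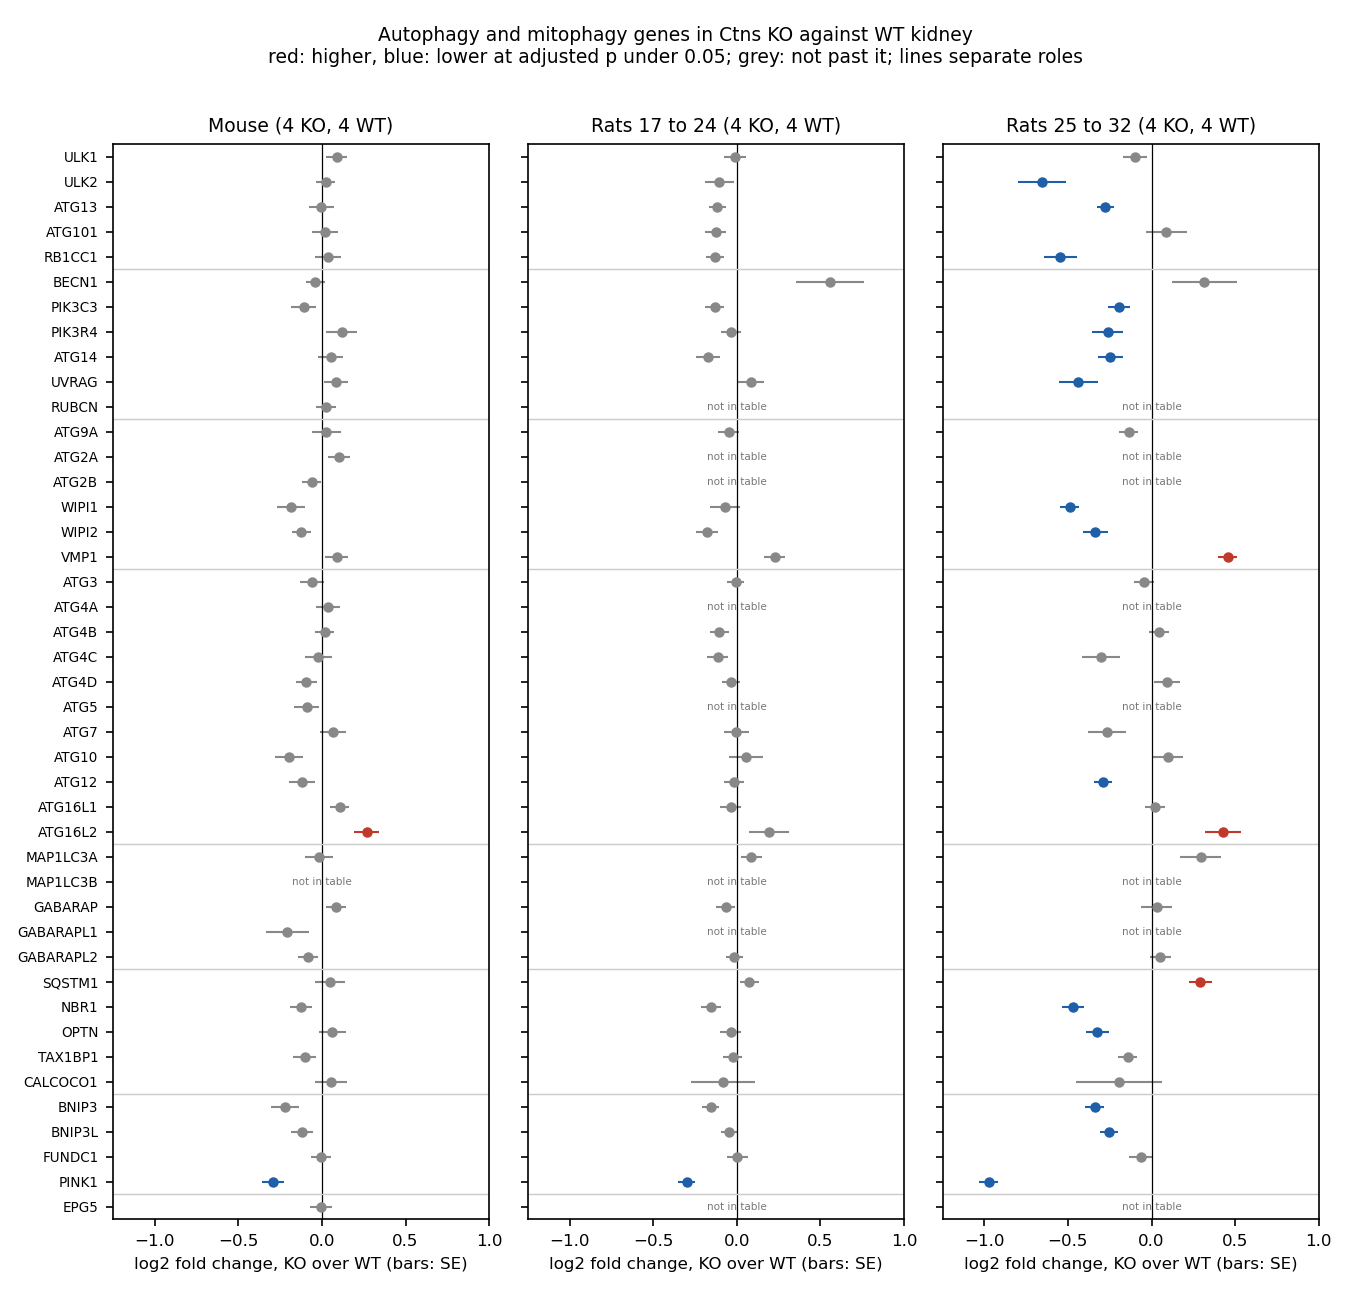
The log2 fold change of KO over WT (x axis, bars 1 standard error) is plotted for each of the 43 genes (y axis, grouped by role) in mice, rats 17 to 24 and rats 25 to 32. Red points were higher and blue points lower at an adjusted p under 0.05, and PINK1 lies left of 0 in all 3 panels, at -0.29, -0.30 and -0.97.

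The rats were also compared within the number ranges, which gives the genotype difference in each set of animals. Counts called within each range do not show whether that difference was alike in both, which was tested as an interaction (below). These comparisons reuse the animals of the comparison over all rats and so are not separate evidence. In rats 17 to 24, 1 of 35 members passed (PINK1, lower), against 7.26% of all genes (5.07% higher, 2.19% lower). At an unadjusted p under 0.05, where the share of all genes was not counted, there were 10 members. In rats 25 to 32, 18 of 35 passed, 15 lower and 3 higher, against 43.8% of all genes (21.8% higher, 22.1% lower). The members' median log2 fold change was -0.04 in the first range and -0.19 in the second, where the medians of all genes were 0.00 and -0.01.

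PINK1, the kinase that accumulates on damaged mitochondria and phosphorylates ubiquitin there, was the only member called in mice and in both ranges of rats. In WT mice 1, 2, 4 and 7 it stood at 6.95, 6.504, 6.48 and 6.98 scaled units, where 1 unit is the 75th percentile of genes in that library. In KO mice 3, 5, 6 and 8 it was 5.44, 5.81, 5.04 and 5.66, so that no KO mouse reached a WT mouse. Its level fell by 18.3% on the fitted scale (log2 fold change -0.29, SE 0.07, adjusted p = 0.0168 from limma). Without KO mouse 3 or KO mouse 6 the adjusted p rose to 0.0560 and 0.0807 (limma), with log2 fold changes of -0.29 and -0.25. On reads scaled to library totals, an alternative chosen after seeing the data, the log2 fold change was -0.22 and the call was lost (adjusted p = 0.0600, limma).

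In the rats, levels are given as CPM. These are the reads of a gene scaled to that rat's reads on the tested genes multiplied by its TMM normalization factor (edgeR). WT rats 17, 19, 21 and 23 had 168, 170.0, 162 and 160.0 CPM of PINK1, and KO rats 18, 20, 22 and 24 had 128, 138, 131 and 136 CPM. WT rats 25, 27, 29 and 31 had 157, 159, 169.6 and 164 CPM, and KO rats 26, 28, 30 and 32 had 84.6, 82.2, 76.6 and 87.1 CPM. The WT animals of both ranges lay in 1 narrow band, the KO rats 17 to 24 below it, and the KO rats 25 to 32 below these again with no overlap. PINK1 fell by 0.30 on the log2 scale in rats 17 to 24 (SE 0.05, adjusted p = 0.00259, edgeR) and by 0.97 in rats 25 to 32 (SE 0.06, adjusted p = 1.43e-06, edgeR). The difference between these falls was itself tested as an interaction and came to -0.67 (SE 0.07, adjusted p = 4.6e-05, edgeR). Between 2152 and 6156 reads per rat lay behind these values.

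**Figure D2:**
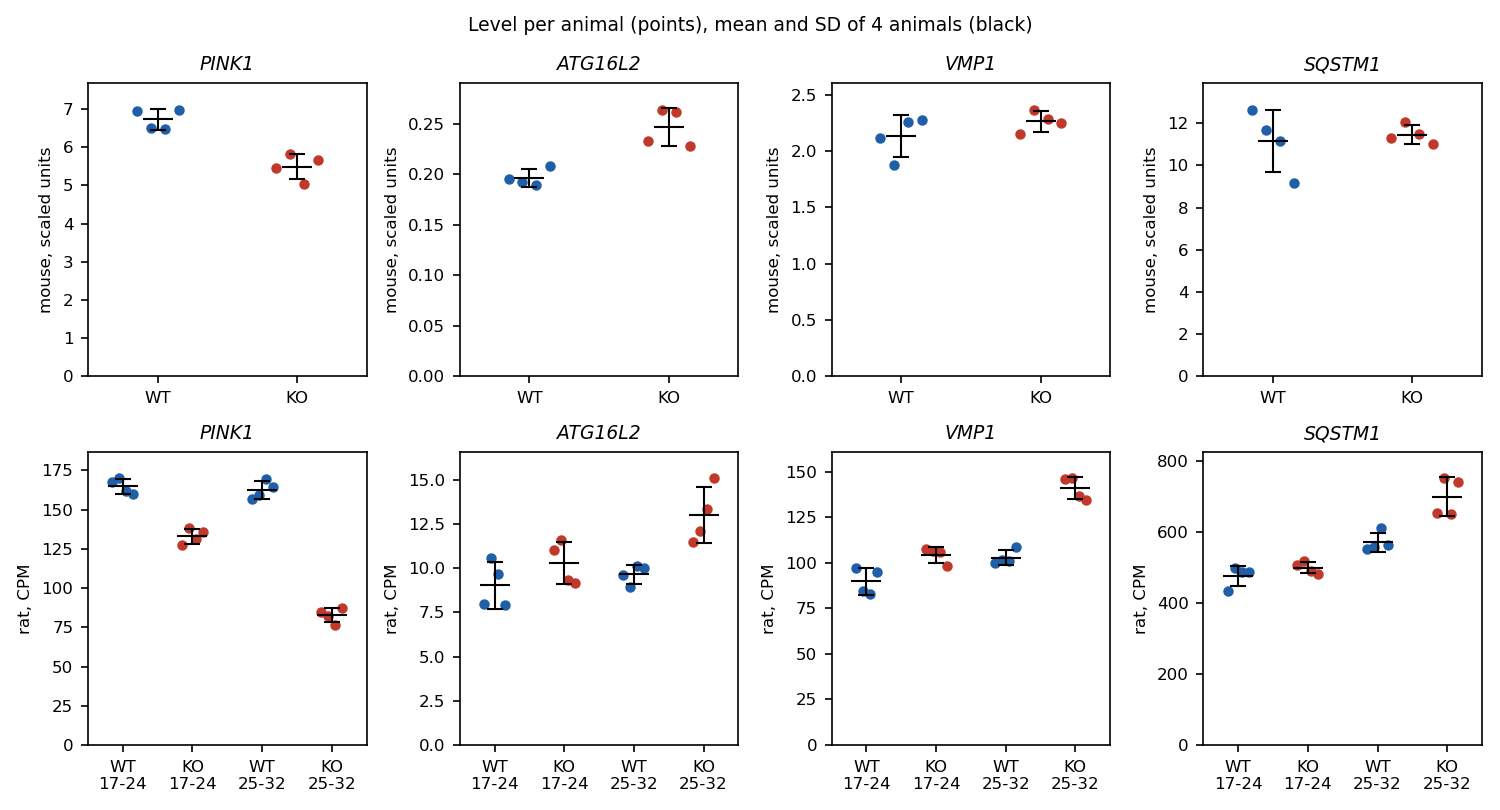
Levels of PINK1, ATG16L2, VMP1 and SQSTM1 are shown for each animal (points), in scaled units for mice (top) and CPM for rats (bottom), with the mean and SD of each group of 4. KO rats 25 to 32 have the lowest PINK1 (76.6 to 87.1 CPM) and the highest VMP1 (135 to 146 CPM) of the rat groups.

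The rat promoters of PINK1 and of BNIP3, another mitophagy gene that was lower in KO rats, are shown with that of ATG16L2, which was higher, because PINK1 and ATG16L2 are the members called in both species, in opposite directions. Each is the 250 bases before the start site on the minus strand, from RefSeq's rat assembly GRCr8, which is not the build named for the deposited data. Capitals mark CACGTG, an E-box form that reads the same on both strands and that basic helix-loop-helix factors, TFEB among them, are known to bind. PINK1 lies at chr5:155825951-155826200, ATG16L2 at chr1:165115230-165115479 and BNIP3 at chr1:203154963-203155212.
Pink1: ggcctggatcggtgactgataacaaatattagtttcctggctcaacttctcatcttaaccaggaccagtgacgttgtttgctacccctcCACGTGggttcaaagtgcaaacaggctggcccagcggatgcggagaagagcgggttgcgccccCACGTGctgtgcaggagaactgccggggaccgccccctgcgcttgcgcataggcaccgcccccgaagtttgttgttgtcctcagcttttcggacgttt
Bnip3: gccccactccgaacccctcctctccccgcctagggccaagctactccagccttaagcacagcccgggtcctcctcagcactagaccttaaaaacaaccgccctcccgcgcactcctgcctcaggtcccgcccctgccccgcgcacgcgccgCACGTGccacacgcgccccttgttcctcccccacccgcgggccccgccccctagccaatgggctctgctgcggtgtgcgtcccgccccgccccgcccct
Atg16l2: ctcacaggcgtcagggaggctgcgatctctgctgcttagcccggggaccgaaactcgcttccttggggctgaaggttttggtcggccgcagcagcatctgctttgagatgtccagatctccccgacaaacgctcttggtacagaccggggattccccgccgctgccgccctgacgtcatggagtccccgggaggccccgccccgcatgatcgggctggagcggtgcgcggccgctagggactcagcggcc
PINK1 held 2 matches, beginning 161 and 98 bases before the start, BNIP3 1 match at 99 bases, and ATG16L2 none. Of the 43 members, 37 had a promoter in the table, and 5 of these (13.5%) held the motif, the others being ATG3, ATG5 and EPG5, of which ATG3 was not called in either species and ATG5 and EPG5 were analysed only in the mouse. Of all 33469 rat promoters of that length, 5.59% held it. Members were counted per gene, by a match in any promoter of the gene, and this share per promoter, so the 2 shares are not in the same unit. ULK2, ATG13, PIK3C3, ATG14, WIPI1, WIPI2, ATG12 and NBR1, also called lower over all rats, held no match. VMP1, called higher, held none either. RB1CC1, BECN1, ATG9A, MAP1LC3A, BNIP3L and FUNDC1 had no matched entry. A match is a description of letters and not evidence that a factor binds.

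The mitophagy receptors of the outer membrane changed less than the kinase PINK1. BNIP3, an outer membrane receptor induced by hypoxia, was 176 to 195 CPM in the 8 WT rats (median 185) and 137 to 171 CPM in the 8 KO rats (median 157). The 2 genotypes did not overlap. The log2 fold change was -0.25 (SE 0.05, adjusted p = 0.00226, edgeR), with -0.15 in rats 17 to 24 (adjusted p = 0.0929, edgeR) and -0.34 in rats 25 to 32 (adjusted p = 0.000926, edgeR). In mice BNIP3 was 3.11 ± 0.160 scaled units in WT and 2.67 ± 0.337 in KO animals (SD, n = 4 each), overlapping, with a log2 fold change of -0.22 that did not pass (adjusted p = 0.142, limma). BNIP3L, its paralog also called NIX, which clears mitochondria from maturing red cells, was lower over all rats (-0.16, SE 0.05, adjusted p = 0.0162, edgeR), but its mouse values were not whole reads and its call was lost without WT rat 31. FUNDC1, the third outer membrane receptor, had log2 fold changes of 0.00 in mice and -0.03 in rats, and neither passed.

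Cargo receptors did not move as 1 group. SQSTM1 (p62), which links ubiquitinated cargo to LC3 and is itself degraded by autophagy, had 12.6, 11.6, 11.1 and 9.17 scaled units in WT mice 1, 2, 4 and 7 and 11.3, 12.03, 11.5 and 10.998 in KO mice 3, 5, 6 and 8, with overlap throughout (log2 fold change 0.05, SE 0.09, adjusted p = 0.837, limma). WT rats 17, 19, 21 and 23 had 434, 498, 488 and 487 CPM, and KO rats 18, 20, 22 and 24 had 508, 519, 489.5 and 483 CPM. These overlapped as well (0.08, SE 0.06, adjusted p = 0.521, edgeR). WT rats 25, 27, 29 and 31 had 552, 559.6, 611 and 563 CPM, and KO rats 26, 28, 30 and 32 had 654, 752, 650.0 and 743 CPM. There all KO rats lay above all WT rats, a rise of 22.4% (log2 fold change 0.29, SE 0.07, adjusted p = 0.00733, edgeR), and WT rats of the second range were themselves above those of the first. The rise over all rats (0.19, SE 0.11, adjusted p = 0.183) and the difference between ranges (0.22, SE 0.09, adjusted p = 0.107) did not pass in edgeR. Once the range entered the fit as a covariate, the rise over all rats was 0.18 (SE 0.05) and was called (adjusted p = 0.0157, edgeR).

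NBR1, which carries ubiquitinated cargo beside p62, went the other way. WT rats 17, 19, 21 and 23 had 330.5, 337, 353 and 390.1 CPM and KO rats 18, 20, 22 and 24 had 311, 311, 325 and 315 CPM. WT rats 25, 27, 29 and 31 had 339, 372, 351 and 349 CPM and KO rats 26, 28, 30 and 32 had 266, 242, 267 and 244 CPM. All 8 KO rats lay below all 8 WT rats, with a log2 fold change of -0.31 over all rats (SE 0.07, adjusted p = 0.00320, edgeR), and the fall was larger in the second range (difference -0.31, SE 0.08, adjusted p = 0.0207, edgeR). NBR1 of the mouse was also without overlap, at 7.13 to 8.01 scaled units in WT and 6.66 to 7.11 in KO animals, but did not pass (log2 fold change -0.12, adjusted p = 0.304, limma), and scaled to library totals the 2 genotypes overlapped. OPTN, a receptor of ubiquitinated mitochondria, was lower in rats 25 to 32 (-0.32, SE 0.07, adjusted p = 0.00346, edgeR). The WT rats of that range stood apart at 129 ± 4.94 CPM (SD, n = 4), and its KO rats, at 103 ± 8.08 CPM, were not below the WT rats 17 to 24 at 98.4 ± 8.54 CPM. Over all rats OPTN did not pass (adjusted p = 0.0904, edgeR) unless the range entered the fit as a covariate (-0.19, SE 0.06, adjusted p = 0.0173, edgeR). TAX1BP1 and CALCOCO1, the last 2 cargo receptors, were called in no comparison, and CALCOCO1 of the rat was not in whole reads.

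Of the conjugation genes, ATG16L2 was the 1 called in mice. It is a homolog of ATG16L1, the protein that places the ATG12 to ATG5 conjugate at the membrane. WT mice 1, 2, 4 and 7 had 0.195, 0.192, 0.190 and 0.209 scaled units, and KO mice 3, 5, 6 and 8 had 0.233, 0.264, 0.262 and 0.228. All KO values lay above all WT values, a rise of 20.3% (log2 fold change 0.27, SE 0.07, adjusted p = 0.0436, limma). This scale adds 0.05 to each value, which understates changes at so low a level (log2 fold change 0.06 with 1 added and 0.31 with 0.01 added). On log2 CPM over library totals, which also changes the normalization, it was 0.40. Only 175 to 434 reads per mouse lay on the gene. The call held without WT mouse 7 and was lost without any 1 of the other 7 mice (adjusted p = 0.0550 to 0.158, limma). WT rats 17, 19, 21 and 23 had 7.97, 10.6, 9.65 and 7.91 CPM, and KO rats 18, 20, 22 and 24 had 11.02, 11.6, 9.37 and 9.17 CPM, with overlap. WT rats 25, 27, 29 and 31 had 9.60, 8.94, 10.1 and 10.006 CPM and KO rats 26, 28, 30 and 32 had 11.5, 12.1, 13.3 and 15.1 CPM, with none. ATG16L2 rose by 0.32 over all rats (SE 0.10, adjusted p = 0.0275, edgeR), a call that was lost without WT rat 23 or KO rat 30, and by 0.43 in rats 25 to 32 (SE 0.11, adjusted p = 0.00790, edgeR).

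ATG12, the ubiquitin-like protein that ATG7 and ATG10 join to ATG5, was the other conjugation gene called in rats, lower by 0.16 on the log2 scale over all rats (SE 0.06, adjusted p = 0.0400, edgeR), which 11 of 16 single omissions undid. In rats 25 to 32 its log2 fold change was -0.29 (SE 0.05, adjusted p = 0.00166, edgeR). There KO rats had 64.1 ± 1.93 CPM (SD, n = 4), near the 65.6 ± 2.87 CPM of KO rats 17 to 24, while WT rats had 78.4 ± 2.82 CPM against 66.8 ± 4.11 CPM in the first range. The enzymes ATG3, ATG7 and ATG10, the ATG8 proteases ATG4B, ATG4C and ATG4D, and ATG16L1 were not called in mice or in rats, with log2 fold changes from -0.21 (ATG4C) to 0.07 (ATG10) over all rats, and ATG4C alone of these was called with the number range as a covariate (-0.21, SE 0.07, adjusted p = 0.0177, edgeR). ATG4A and ATG5 of the mouse, at 0.03 and -0.09, did not pass either, and ATG4A was not in whole reads.

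Genes of membrane supply and lipid transfer held the clearest rise and 1 of the clear falls. VMP1, an endoplasmic reticulum scramblase needed for the phagophore to grow, had 97.2, 84.2, 82.7 and 95.1 CPM in WT rats 17, 19, 21 and 23 and 108, 106, 106 and 98.0 CPM in KO rats 18, 20, 22 and 24. WT rats 25, 27, 29 and 31 had 99.8, 102, 101 and 109 CPM and KO rats 26, 28, 30 and 32 had 146, 146, 137 and 135 CPM. Within each range KO lay above WT without overlap. The log2 fold change was 0.35 over all rats (SE 0.09, adjusted p = 0.00907), 0.23 in rats 17 to 24 (SE 0.06, adjusted p = 0.0519) and 0.46 in rats 25 to 32 (SE 0.06, adjusted p = 0.000141, all edgeR). In WT mice 1, 2, 4 and 7 VMP1 was 2.12, 1.88, 2.26 and 2.27 scaled units and in KO mice 3, 5, 6 and 8 it was 2.15, 2.37, 2.29 and 2.25, overlapping (0.09, SE 0.07, adjusted p = 0.528, limma).

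WIPI1, which reads phosphatidylinositol 3-phosphate on the phagophore, had 41.2, 39.5, 48.5 and 43.7 CPM in WT rats 17, 19, 21 and 23 and 43.8, 36.1, 46.7 and 37.3 CPM in KO rats 18, 20, 22 and 24, intermingled. WT rats 25, 27, 29 and 31 had 43.2, 46.5, 46.2 and 45.0 CPM and KO rats 26, 28, 30 and 32 had 33.1, 31.7, 32.4 and 31.5 CPM. Only the second range separated, with log2 fold changes of -0.07 and -0.49 (SE 0.09 and 0.06, adjusted p = 0.744 and 0.000108, edgeR) and a difference between them of -0.42 (SE 0.11, adjusted p = 0.0202, edgeR). WIPI1 of the mouse, at 1.30, 1.16, 1.05 and 1.19 scaled units in WT mice 1, 2, 4 and 7 and 0.898, 1.18, 1.06 and 0.996 in KO mice 3, 5, 6 and 8, did not pass (-0.18, SE 0.08, adjusted p = 0.227, limma). WIPI2, its relative that recruits ATG16L1, was lower over all rats (-0.26, SE 0.05, adjusted p = 0.00161, edgeR). ATG9A, the scramblase of the seed vesicles, was not called in either species, nor were the lipid transfer proteins ATG2A and ATG2B in the mouse.

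In the initiation complex, the kinase ULK2 and the scaffold RB1CC1 (FIP200) had the largest log2 fold changes over all rats. ULK2 had 32.7, 43.8, 36.0 and 41.3 CPM in WT rats 17, 19, 21 and 23 and 35.2, 33.8, 38.2 and 35.2 CPM in KO rats 18, 20, 22 and 24. In the second range WT rats 25, 27, 29 and 31 had 41.2, 52.1, 35.1 and 35.5 CPM and KO rats 26, 28, 30 and 32 had 27.6, 23.8, 30.3 and 22.4 CPM. The first range overlapped and the second did not. The fall of 0.65 on the log2 scale in rats 25 to 32 (SE 0.14, adjusted p = 0.00416, edgeR) was the second largest among members, and over all rats it was 0.37 (SE 0.12, adjusted p = 0.0273, edgeR), which 5 of 16 single omissions undid. ULK2 in WT mice 1, 2, 4 and 7 was 1.09, 1.12, 1.04 and 1.17 scaled units and in KO mice 3, 5, 6 and 8 it was 1.16, 1.13, 1.12 and 1.07 (log2 fold change 0.02, SE 0.06, adjusted p = 0.878, limma).

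RB1CC1 had 74.9, 85.2, 75.5 and 82.2 CPM in WT rats 17, 19, 21 and 23 and 73.7, 71.6, 70.2 and 73.5 CPM in KO rats 18, 20, 22 and 24. In WT rats 25, 27, 29 and 31 it was 74.3, 78.2, 70.6 and 69.4 CPM and in KO rats 26, 28, 30 and 32 it was 55.5, 41.8, 55.7 and 47.3 CPM. Neither range overlapped between genotypes, and the KO rats of the second range lay below all other rats. The log2 fold changes were -0.13 in the first range (SE 0.05, adjusted p = 0.194, edgeR) and -0.55 in the second (SE 0.10, adjusted p = 0.00135, edgeR). Over all rats it was -0.32 (SE 0.11, adjusted p = 0.0354, edgeR), and 10 of 16 single omissions undid that call. RB1CC1 was 1.35, 1.51, 1.48 and 1.75 scaled units in WT mice 1, 2, 4 and 7 and 1.61, 1.47, 1.67 and 1.49 in KO mice 3, 5, 6 and 8 (0.04, SE 0.08, adjusted p = 0.852, limma). ATG13, the adaptor of the complex, was lower over all rats (-0.20, SE 0.05, adjusted p = 0.00632, edgeR), a call kept in all 16 single omissions. In rats 25 to 32 its log2 fold change was -0.28 (SE 0.05, adjusted p = 0.00190, edgeR), without overlap between genotypes. ULK1 and ATG101 were called in no comparison.

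**Figure D3:**
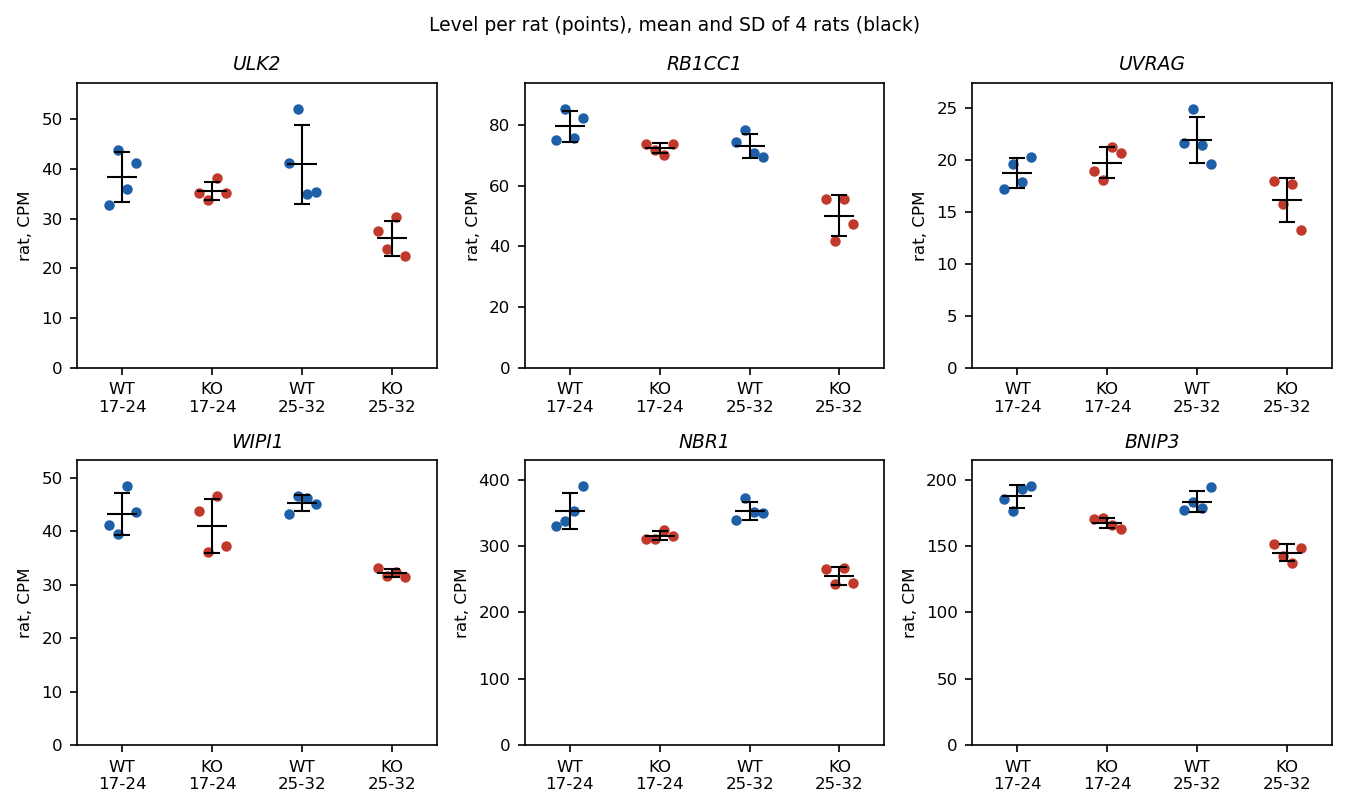
CPM in each rat (points) is plotted by genotype and number range for ULK2, RB1CC1, UVRAG, WIPI1, NBR1 and BNIP3, with the mean and SD of each group of 4. In all 6 panels KO rats 25 to 32 have the lowest mean, for example 26.03 CPM of ULK2 against 40.97 in WT rats of the same range.

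The class III phosphatidylinositol 3-kinase complex was lower in its catalytic subunit and in subunits that set where it acts. Over all rats, the catalytic PIK3C3 (VPS34) had a log2 fold change of -0.17 (SE 0.04, adjusted p = 0.00923, edgeR) and ATG14, which directs the complex to the phagophore, one of -0.21 (SE 0.06, adjusted p = 0.0113, edgeR). In rats 25 to 32 the scaffold PIK3R4 (VPS15) was lower by 0.26 on the log2 scale (SE 0.09, adjusted p = 0.0412, edgeR). UVRAG, which takes the place of ATG14 in the endosomal complex, was 21.5 to 24.9 CPM in 3 of 4 WT rats 25 to 32 and 19.6 in the other, against 13.3 to 17.98 CPM in the KO rats (log2 fold change -0.44, SE 0.12, adjusted p = 0.0118, edgeR). In rats 17 to 24 it was 0.08 (SE 0.08, adjusted p = 0.638, edgeR), and the difference of -0.52 between ranges passed (SE 0.14, adjusted p = 0.0219, edgeR). The WT rats also differed between ranges in mean UVRAG, at 18.7 ± 1.46 CPM in the first and 21.9 ± 2.22 CPM in the second (SD, n = 4 each). RUBCN, the inhibitor of the complex, was tested in mice alone, at 0.02, and no gene of the complex was called there.

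BECN1 (Beclin 1), the regulatory subunit of the same complex, was singled out after its values were seen, because its WT rats fell apart. WT rats 17, 21, 23, 27 and 31 had 77.1, 70.3, 69.1, 76.3 and 85.7 CPM, whereas WT rats 19, 25 and 29 had 129, 147 and 146 CPM. The 8 KO rats ranged from 117 to 147 CPM. The 3 high WT rats thus lay within the range of the KO rats, and the gap from 85.7 to 129 CPM, a ratio of 1.504, runs across both number ranges. The genotype difference over all rats was 0.42 (SE 0.16, adjusted p = 0.0579, edgeR), the largest rise of any member by size, and it did not pass, whereas with the number range as a covariate it did (0.43, SE 0.15, adjusted p = 0.0262, edgeR). The tested genes next to BECN1 in the order of the rat annotation showed no such gap among WT rats, with largest ratios between successive values of 1.101 for COA3 and 1.08 for AARSD1, and in mice BECN1 was 2.54 to 2.73 scaled units in WT and 2.46 to 2.71 in KO animals.

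**Figure D4:**
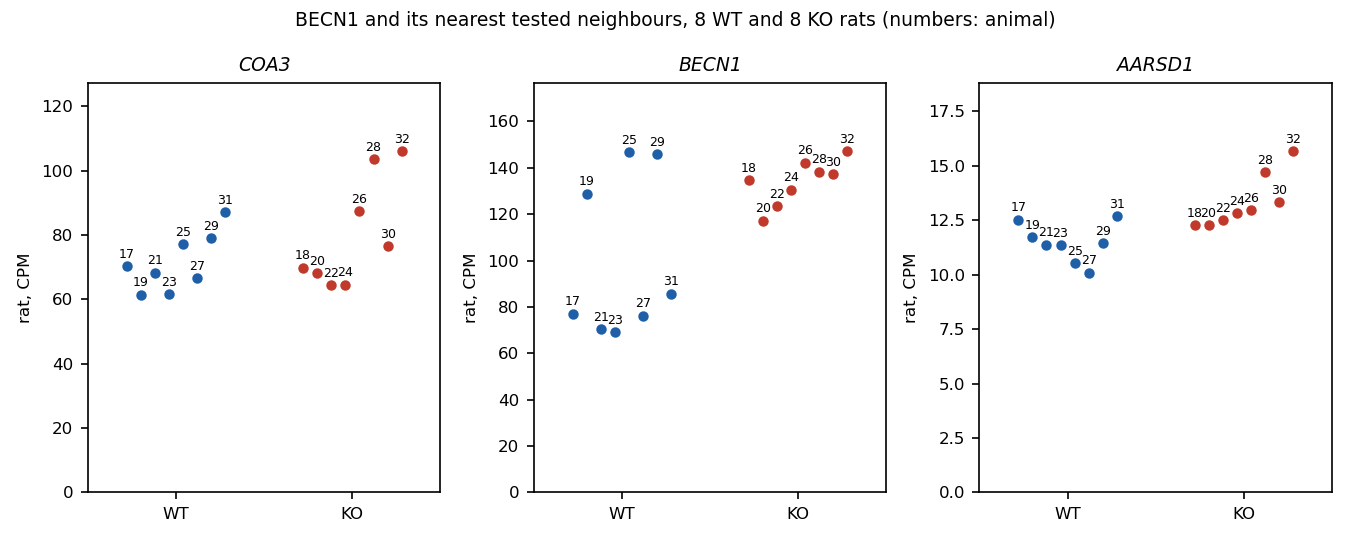
CPM of BECN1 and of its nearest tested neighbours COA3 and AARSD1 is plotted for each of 8 WT and 8 KO rats (points, numbered by animal). WT rats split into 5 at or below 85.7 CPM and 3 at or above 129 CPM for BECN1 but not for either neighbour.

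The ATG8 family and the tether EPG5 showed no called change. MAP1LC3A, an LC3 isoform, had a log2 fold change of 0.20 over all rats (SE 0.12, adjusted p = 0.221, edgeR), GABARAP -0.02 and GABARAPL2 0.02. In mice GABARAPL1 was -0.21 (SE 0.13, adjusted p = 0.398, limma), and MAP1LC3A, GABARAP and GABARAPL2 lay between -0.09 and 0.08. EPG5, which helps autophagosomes fuse with lysosomes, was 0.00 in mice.

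Levels of different genes were compared per length in the mouse only, as reads per kilobase of merged exons (GENCODE vM21) scaled to the library total (RPKM). In WT mice GABARAPL1 stood highest of the 42 members at 560 ± 96.6 (SD, n = 4), followed by GABARAP at 159 ± 3.14 and SQSTM1 at 156 ± 20.9, the last 2 not separated beyond their spread. PINK1 came next at 118 ± 5.09, above BNIP3 at 64.6 ± 4.01. ATG16L2 stood lowest at 1.09 ± 0.0455. The called members of the mouse were thus 1 of its most abundant and its least abundant transcript.

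The interaction of genotype and number range was called for 7 of 35 members, PINK1, ULK2, UVRAG, WIPI1, RB1CC1, NBR1 and ATG12, each with a lower KO to WT ratio in rats 25 to 32. Over all 11839 genes tested 14.7% were called, 7.10% in the upward and 7.64% in the downward direction. ULK2, at an adjusted p of 0.0447 (edgeR), was the weakest of the 7, and 10 of 16 single omissions undid it. The median interaction was -0.11 among members and -0.01 among all genes. Proximal tubule markers were lower in the same comparison for 7 of 11, with a median of -0.60.

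**Figure D5:**
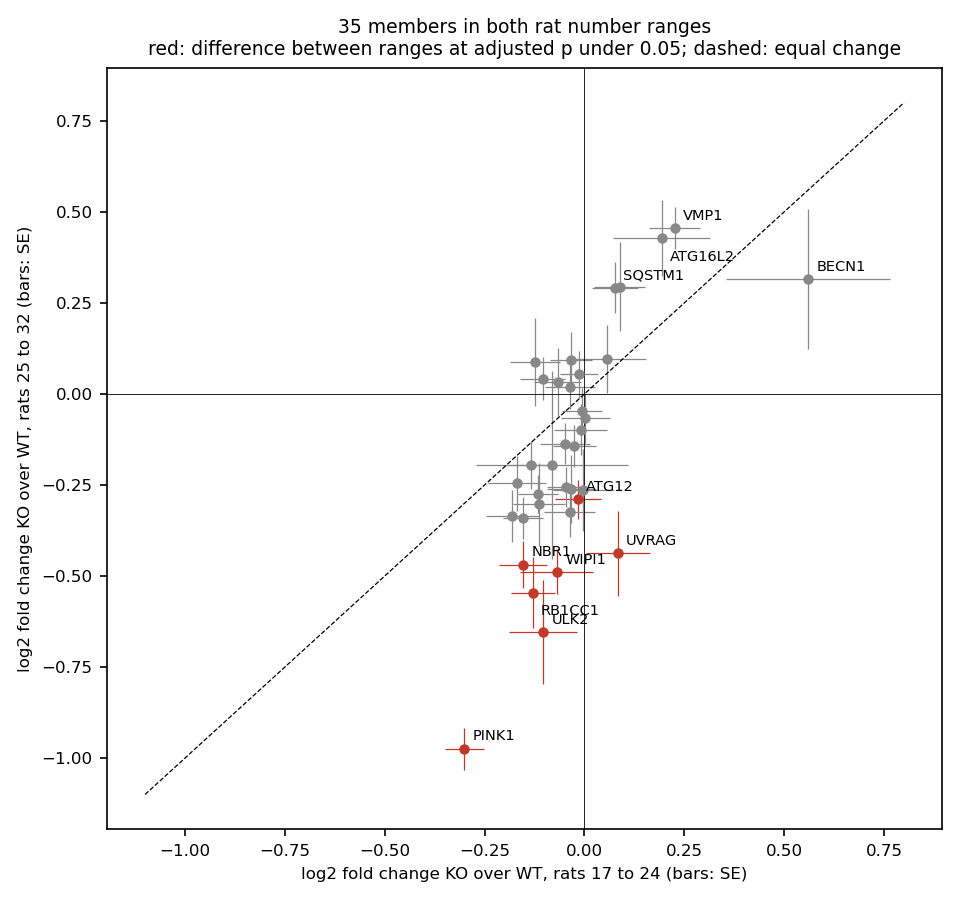
Each of the 35 rat members is placed by its log2 fold change in rats 17 to 24 (x axis) and in rats 25 to 32 (y axis), with bars of 1 standard error. The 7 members in red, whose fold changes differed between ranges, all lie below the dashed line of equal change, with PINK1 farthest down at -0.97.

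The difference between species was called for 0 of 34 members with limma, and edgeR on reads also called 0. In limma 4 had an unadjusted p under 0.05 (ULK2, BECN1, ATG14 and ATG10), where the share of all genes was not counted. Of all 9274 genes in that test 1.41% were called, 0.852% toward a higher and 0.561% toward a lower fold change in rats. PINK1, at -0.29 in mice and -0.60 in rats, had a species difference of -0.30 (SE 0.18, adjusted p = 0.427, limma). The members called in rats alone are therefore not shown to differ from the mouse.

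A wider list of 53 genes of the pathway was also counted. In mice 2 of 48 were called, TP53INP1, a stress-induced protein that binds ATG8 proteins, at 0.87 (SE 0.14, adjusted p = 0.00361, limma), and the fusion SNARE VAMP8 at -0.31 (SE 0.09, adjusted p = 0.0472, limma), and neither was called in rats (0.29 and -0.02). Against the 8.04% of all genes in mice, that is 4.17% of the list. Over all rats 13 of 43 were called, 2 higher and 11 lower (30.2%, against 27.5% of all genes), in rats 17 to 24 4 of 43 (9.30%, against 7.26%), and in rats 25 to 32 18 of 44, of which 16 were lower (40.9%, against 43.8%). With both directions counted together, the called shares of the list in rats were thus near those of all genes. The list divided 2 higher to 11 lower over all rats, where 15.2% of all genes were higher and 12.3% lower. In rats 25 to 32 it divided 2 to 16, against 21.8% and 22.1% of all genes. In rats 17 to 24 it divided 1 to 3, against 5.07% and 2.19%. STX17, the SNARE of the closed autophagosome, fell by 0.64 on the log2 scale over all rats (SE 0.17, adjusted p = 0.00907, edgeR) and by 1.05 in rats 25 to 32 (SE 0.23, adjusted p = 0.00473, edgeR). TEX264, a receptor for endoplasmic reticulum, and VPS11, a subunit of the tethering complexes CORVET and HOPS, were lower in both ranges, TEX264 by 0.28 and 0.46 and VPS11 by 0.20 and 0.18 (adjusted p = 0.0425, 0.00498, 0.0295 and 0.0213, edgeR). LAMP2, a lysosomal membrane protein that fusion needs, and TOLLIP, a ubiquitin-binding receptor, were lower in rats 25 to 32 by 0.36 and 0.46 (adjusted p = 0.00334 and 0.000114, edgeR). The interaction was called for 5 of 44 (11.4%, against 14.7% of all genes) and the species difference for 0 of 41 (limma). For the species difference 13 had an unadjusted p under 0.05 (limma), where the share of all genes was not counted.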

How the data were processed

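Bulk RNA sequencing of the 24 animals was read from 1 table per species, and each library was assigned by its label to genotype and animal. The methods describe the animals as separate individuals and the libraries as stranded mRNA. The submitters' processing notes name bcl2fastq 2.20, STAR 2.7.3, DESeq2 1.24.0, R 3.6.1 and the builds mm10 and rn5. For the mouse the authors deposited a signal per gene, which by its values is the reads plus 0.5 over the 75th percentile of the library plus 0.5. The rat table as deposited holds estimated counts, equal to reads plus 1/6, a constant subtracted here before rounding. Whole reads (within 0.01) were recovered for 99.0% of mouse and 97.7% of rat values. Symbols are of the human style, so more than 1 rodent gene may stand under a symbol. At 19309371 reads or more per animal, counting error is small for genes with many reads, where the number of animals limits the precision. For members with few reads it is not small. Examples are ATG16L2 of the mouse (175 to 434 reads) and CALCOCO1 of the rat (16 to 49 reads).

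Mouse genes with at least 0.05 scaled units in at least 4 mice were tested with limma 3.58.1 (trend, robust) on log2(value + 0.05). Rat reads were tested with edgeR 4.0.16 (quasi-likelihood, robust, TMM, its filter on low counts), over all rats, within each number range and for the interaction. The species difference was a limma interaction on rat reads scaled like the mouse table. P-values were adjusted over all genes by Benjamini-Hochberg with a threshold of 0.05, in R 4.3.3, without covariates. Alternatives were other pseudocounts, no filter, edgeR, DESeq2 1.42.0 and TMM log2 CPM on recovered mouse reads, DESeq2 and its size factors in rats, the number range as a covariate, 1 fit over all 16 rats, and leaving out each animal, with log2 CPM over library totals in mice added after seeing the data. On simulated data with 200 genes changed 2-fold, 96% were recovered in the mouse comparison (16 false calls among 11606 genes), 99.5% over all rats (12 of 11640), 96% in rats 17 to 24 (10 of 11618), 96.5% in rats 25 to 32 (7 of 11635), 87% for the interaction with number range (9 of 11802) and 95.5% for that with species (14 of 9232). The largest called change of a member, PINK1 in rats 25 to 32, had a log2 fold change of -0.97, and most were far smaller. The recovery of changes smaller than 2-fold was not simulated, so these shares do not apply to them. The simulated rats took their spread from within genotype and number range and held no general difference between the ranges. The 99.5% over all rats therefore does not cover genes whose levels differ between ranges. Within groups every pair of libraries differed by more than sampling noise (chi-square over its degrees of freedom at least 12.7 in 12 mouse pairs and 8.85 in 56 rat pairs).

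Members and lists were chosen with earlier results of these data known. Values per animal are given for members called in the mouse or in both number ranges, the 5 largest changes called over all rats, the 3 smallest p of the called interaction, SQSTM1 and MAP1LC3B, of which the last was not analysed here. The marker lists were proximal tubule, distal nephron, podocyte and endothelium, fibroblast, macrophage, lymphocyte, red blood cell, tubular injury and cell cycle. Promoters are from RefSeq (GRCr8), matched by symbol.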

Additional observations from a re-analysis of the deposited data

Results flagged for a closer look

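Among 154 groups of 4 or 8 animals (1 group per member, genotype and species), 5 held an animal set apart from the rest by more than Dixon's 95% critical value, where chance gives about 1 in 20 groups. WT mouse 2 was low for ATG4A, at 0.243 scaled units against 0.269 to 0.274 in the other WT mice, and for BNIP3, at 2.87 against 3.16 to 3.20. KO mouse 5 was high for MAP1LC3A, at 1.25 scaled units against 1.14 to 1.15 in the other KO mice. KO rat 26 was high for OPTN, at 114 CPM against 92.2 to 102 CPM in the other KO rats, and WT rat 25 was high for CALCOCO1, at 1.64 CPM against 1.02 to 1.27 CPM in the other WT rats.

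The KO to WT difference itself differed between rats 25 to 32 and rats 17 to 24 for 7 members by the edgeR interaction test. The differences on the log2 scale were -0.67 for PINK1, -0.55 for ULK2, -0.52 for UVRAG, -0.42 for WIPI1, -0.41 for RB1CC1, -0.31 for NBR1 and -0.27 for ATG12. What the number ranges stand for is not stated in the sources, so a cause was not tested.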

How the results depend on the processing

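No called member changed direction under any alternative run, and the cause of the changes below was not tested. Of members not called, the sign changed in at least 1 alternative for 18 of 40 in mice, 4 of 21 over all rats, 9 of 34 in rats 17 to 24, 2 of 17 in rats 25 to 32, 2 of 28 for the interaction and 9 of 34 for the species difference, with log2 fold changes of at most 0.06, 0.02, 0.04, 0.03, 0.11 and 0.05 in size as reported. The wider list was not refitted. The mouse count of 2 called members became 1 with edgeR on recovered reads and with limma on TMM log2 CPM, where ATG16L2 was lost (adjusted p = 0.0533 and 0.0507) and PINK1 was called. It was also 1 with limma on log2 CPM over library totals, added after seeing the data, where PINK1 was lost (adjusted p = 0.0600) and ATG16L2 was called (adjusted p = 0.0120). It ranged from 0 to 2 with each mouse left out. It was 0 without KO mouse 3 or KO mouse 6. In rats 17 to 24 the count of 1 became 3 with DESeq2 and 2 in 1 fit over all 16 rats, and 1 to 2 with each rat left out, being 2 without WT rat 17, 19 or 23. PINK1 was called in every rat setting. Over all rats the count of 14 ranged from 10 to 15 with each rat left out and was 18 with the number range as a covariate, which called ATG4C, BECN1, OPTN and SQSTM1 as well. The 18 of rats 25 to 32 ranged from 15 to 19 and was 22 in the fit over all 16 rats, and the 7 interactions ranged from 5 to 9 and were 10 with DESeq2. In rats 25 to 32, PIK3C3 was lost in 7, PIK3R4 in 6 and ATG14 in 3 of 8 omissions, and over all rats WIPI1 was lost without WT rat 29 or KO rat 32. Among the interactions ATG12 was lost without WT rat 19, WT rat 29 or KO rat 18, NBR1 without KO rat 28, UVRAG without KO rat 22, and ULK2 also with DESeq2's size factors. The species difference called 0 members in each setting. No paired analysis was run, because no label names the litter of an animal or pairs a KO with a WT animal.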

Other observations

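Other listed genes of the pathway showed values outside the comparisons named above. In rats 25 to 32, FOXO1, a transcription factor that drives autophagy genes, fell by 0.74 on the log2 scale (SE 0.19, adjusted p = 0.0103, edgeR), the ferritin receptor NCOA4 by 0.48 (SE 0.10, adjusted p = 0.00254, edgeR), the kinase ULK3 by 0.42 (SE 0.10, adjusted p = 0.00528, edgeR) and TMEM41B, a scramblase that works with VMP1, by 0.29 (SE 0.06, adjusted p = 0.00295, edgeR). None of these 4 was called in rats 17 to 24 (log2 fold changes -0.19, -0.10, -0.04 and 0.04), and of the 4 the interaction with number range was called for TMEM41B (-0.32, SE 0.08, adjusted p = 0.0134, edgeR). YKT6, a SNARE of autophagosome fusion, was higher in KO rats 17 to 24 (0.28, SE 0.05, adjusted p = 0.00611, edgeR) and not in rats 25 to 32 (-0.01, adjusted p = 0.923, edgeR), and that difference passed (-0.28, SE 0.08, adjusted p = 0.0330, edgeR). USP30, a deubiquitinase of the outer mitochondrial membrane that opposes mitophagy, was lower in KO rats 17 to 24 (-0.26, SE 0.06, adjusted p = 0.0172, edgeR) and over all rats (-0.19, SE 0.04, adjusted p = 0.00294, edgeR), and not called in rats 25 to 32 (-0.12, SE 0.06, adjusted p = 0.156, edgeR), while the difference between ranges did not pass (0.15, SE 0.08, adjusted p = 0.189, edgeR).

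Markers of other kinds moved as follows over all rats, among those tested. Fibroblast genes were higher for 6 of 7, lymphocyte genes for 6 of 7, tubular injury genes for 8 of 10 and cell cycle genes for 9 of 9, distal nephron genes were higher for 2 of 6, and podocyte and endothelium genes and red blood cell genes were called for 0 of 9 and 0 of 4 (edgeR; 1 and 0 at an unadjusted p under 0.05). In mice the called counts were 4 of 9 fibroblast, 0 of 1 lymphocyte, 4 of 10 tubular injury and 9 of 10 cell cycle genes, all higher, 0 of 9 distal nephron, 1 of 10 podocyte and endothelium (lower) and 0 of 1 red blood cell genes (limma). Their part in the members' results was not tested.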
